A study of Mus musculus with 12 samples.

Results

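CD34+ cells sorted from cultures of Bcor Fl/Y mouse bone marrow were compared after transduction with a retrovirus that expresses Cre recombinase and after transduction with an empty control retrovirus. The comparison took 6 of the 12 arrays of the series, chosen by sample title, with 3 Cre arrays and 3 control arrays. Of 45281 probes on the Illumina array, 16184 were kept because at least 3 of these 6 arrays detected them (detection p-value under 0.05). Those with a single gene symbol represented 8944 genes. Every cell, Cre and control alike, came from marrow of 3-month-old mice whose only Bcor copy, on the X chromosome, has loxP sites around exons 9 and 10. Per the series design, removal of these exons by Cre shifts the reading frame and brings a premature stop codon. All cultures held 20% fetal bovine serum with SCF at 50 ng/ml, IL6 at 25 ng/ml and IL-3 at 10 ng/ml, and were selected with puromycin. CD34+ cells were then isolated by flow cytometry, and RNA was profiled on arrays of 1 colour. The other 6 arrays, 3 Cre and 3 control, held unsorted bone marrow (BM) cells of the same genotype, age and culture.

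The labels number the marrows. In each CD34+ arm, number 2 has 2 repeats and number 4 a single array, which makes 2 marrows. The labels do not say whether the repeats were separate sorts or whether a number is a single animal. Repeats were therefore averaged, and the marrow was the replicate. Levels below are log2 normalised intensities, and a difference is Cre minus control on the same log2 scale. The tests were limma fits over 4 group means with Benjamini-Hochberg adjustment over the 8944 genes and a threshold of 0.05. With 2 marrows per arm, the p-values measure the spread between these few samples, and that spread was taken in part from the BM samples. The BM arrays are labelled as repeats with no marrow number, and each entered as a separate sample. If they share a marrow, the spread between marrows may be understated in every p-value here.

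BCOR is a corepressor of the transcription factor BCL6 and a core subunit of PRC1.1, a variant Polycomb complex that places ubiquitin on histone H2A. PRC1.1 is recruited to CpG-rich promoters by its subunit KDM2B, whose CXXC domain binds unmethylated CpG. In blood, loss-of-function mutations of BCOR occur in myeloid neoplasms, and CD34 marks stem and progenitor cells and, in the mouse, also mast cells.

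Promoter windows of 4 genes with large differences, 2 higher (Gcnt2, Pdlim1) and 2 lower (Fxyd6, Mrgprb2), are shown for their range of CpG content, since KDM2B binds that dinucleotide. Each window runs from 250 bases before to 50 bases after a RefSeq start (GRCm38.p6), 5′ to 3′ on the gene's strand, and capitals mark CG. Gcnt2 has 3 starts on chromosome 13 (plus strand), at chr13:40859518-40859817, chr13:40886508-40886807 and chr13:40917384-40917683. The window of Pdlim1 lies at chr19:40271567-40271866 (minus strand), that of Fxyd6 at chr9:45369935-45370234 (plus strand) and that of Mrgprb2 at chr7:48558037-48558336 (minus strand).
Gcnt2 start 1: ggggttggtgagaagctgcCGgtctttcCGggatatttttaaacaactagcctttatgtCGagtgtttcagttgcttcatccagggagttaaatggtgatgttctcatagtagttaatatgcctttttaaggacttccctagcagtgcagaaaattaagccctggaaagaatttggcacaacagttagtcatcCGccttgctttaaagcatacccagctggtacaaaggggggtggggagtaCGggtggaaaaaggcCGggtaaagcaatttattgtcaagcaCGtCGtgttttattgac
Gcnt2 start 2: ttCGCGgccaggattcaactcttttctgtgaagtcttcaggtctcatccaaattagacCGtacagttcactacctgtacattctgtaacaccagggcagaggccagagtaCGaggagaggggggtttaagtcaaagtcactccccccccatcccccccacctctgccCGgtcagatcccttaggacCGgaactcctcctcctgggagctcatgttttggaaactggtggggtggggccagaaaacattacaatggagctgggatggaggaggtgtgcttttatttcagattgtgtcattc
Gcnt2 start 3: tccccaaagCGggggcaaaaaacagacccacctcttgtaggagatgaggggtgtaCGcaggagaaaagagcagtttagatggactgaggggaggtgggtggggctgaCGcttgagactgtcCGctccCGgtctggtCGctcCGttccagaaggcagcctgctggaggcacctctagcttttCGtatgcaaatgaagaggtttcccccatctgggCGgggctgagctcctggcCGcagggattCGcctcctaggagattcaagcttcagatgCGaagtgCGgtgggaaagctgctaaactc
Pdlim1: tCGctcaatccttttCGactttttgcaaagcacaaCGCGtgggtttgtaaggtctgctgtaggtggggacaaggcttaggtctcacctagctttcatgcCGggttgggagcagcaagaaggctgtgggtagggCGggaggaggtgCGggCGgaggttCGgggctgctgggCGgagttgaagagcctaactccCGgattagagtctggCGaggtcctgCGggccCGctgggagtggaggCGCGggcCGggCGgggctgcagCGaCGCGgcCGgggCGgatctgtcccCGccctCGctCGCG
Fxyd6: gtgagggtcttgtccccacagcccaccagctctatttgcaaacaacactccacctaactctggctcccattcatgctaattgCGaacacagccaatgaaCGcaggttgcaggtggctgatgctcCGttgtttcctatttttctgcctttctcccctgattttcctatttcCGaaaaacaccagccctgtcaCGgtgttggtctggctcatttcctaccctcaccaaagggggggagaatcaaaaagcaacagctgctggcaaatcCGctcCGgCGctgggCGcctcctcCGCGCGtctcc
Mrgprb2: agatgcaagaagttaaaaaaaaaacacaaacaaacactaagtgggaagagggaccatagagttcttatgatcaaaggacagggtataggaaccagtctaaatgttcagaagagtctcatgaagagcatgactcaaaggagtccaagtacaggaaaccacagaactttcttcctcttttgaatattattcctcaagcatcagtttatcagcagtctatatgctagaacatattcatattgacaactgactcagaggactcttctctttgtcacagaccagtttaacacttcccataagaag

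The windows differed widely in CpG content. Pdlim1 held 27 CG, a number reached by 15.5% of all 32851 RefSeq promoter windows of the same 300 bases, and Mrgprb2 held none. The 3 Gcnt2 windows held 8, 6 and 13, and Fxyd6 held 12, beside a median of 7 over all windows, of which 94.6% had at least 1. Across the 17 windows found for Bcor, Mrgprb2 and 6 of the 7 genes past the threshold (Gcnt2, Dab2ip, Rhobtb1, Pdlim1, Plac8 and Fxyd6), the number ran from 0 in Mrgprb2 to 33 in the third Rhobtb1 window. On both strands, AGATAA, a form of the GATA motif, was in none of the 17, against 11.2% of all windows. Other forms of that motif were not counted. TTCNNNGAA, a STAT-type motif, was in the second Gcnt2 window and both overlapping Bcor windows, against 8.3% of all windows. Among E-box letters, CATGTG was in the first Rhobtb1 window (14.2% of all windows) and CACGTG, which itself contains CG, in the second (7.2% of all windows).

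Between 15571 and 16372 probes were detected on each CD34+ array (34.4% to 36.2%). Repeats of marrow number 2 correlated at 0.995 for Cre and 0.994 for control over the kept genes. The array labelled number 4 Cre correlated at 0.980 with the number 4 control and at 0.945 with each number 2 Cre array. Cd34 itself stood at 9.91, 9.67 and 10.62 on the Cre arrays (number 2 repeats, then number 4) and at 10.41, 10.04 and 10.32 on the control arrays. Its CD34+ control level exceeded the unsorted BM control level by 0.10 ± 0.28 (adjusted p = 0.822, limma), so no difference in Cd34 RNA between sorted and unsorted controls was detected.

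The sorted cells carried mast cell genes on all 6 arrays. Cpa3, a mast cell carboxypeptidase, stood at 15.54, 15.52 and 15.62 with Cre and at 15.73, 15.71 and 15.66 in controls. The high-affinity IgE receptor subunit Fcer1a stood at 15.49, 15.59 and 15.56 with Cre and at 15.75, 15.66 and 15.63 in controls. Of the mast cell and basophil lists, 9 of 15 proteases and 41 of 48 signalling and mediator genes on the array were measured. Of the stem and progenitor list 15 of 26 were measured, without Flt3, Slamf1, Procr or Hlf. Neutrophil granule genes Mpo, Elane and Prtn3, eosinophil Epx and Prg2, B cell Pax5 and Cd79b, and T cell Cd3e and Cd3g did not pass the detection filter. Only 9 of 38 late granulocyte genes, 1 of 10 eosinophil genes, 3 of 18 B cell genes and 4 of 23 T and NK cell genes were measured. Other lineage lists were measured more fully. They were primary granule (8 of 16), monocyte and macrophage (15 of 36), erythroid (15 of 29) and megakaryocyte and platelet genes (19 of 31).

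Bcor transcript was lower with Cre in marrow number 2 and not in number 4. The level was 8.93 and 9.08 on the number 2 Cre arrays and 9.95 on the array labelled number 4 Cre. The control arrays stood at 9.80, 9.69 and 9.91. Both number 2 Cre arrays lay below every control array, and the array labelled number 4 Cre lay above every control array, so the arms overlapped. The difference was −0.74 in number 2 and 0.03 in number 4, −0.35 ± 0.30 over both (adjusted p = 0.999, limma), and −0.83 (adjusted p = 0.186, limma) when the array labelled number 4 Cre was left out. A second Bcor probe gave −0.68 and 0.06, and a remaining probe was undetected. The positions of these probes with respect to the deleted exons are not used here, and a transcript that lacks them could still be measured. Results below are mostly given by marrow for this reason.

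**Figure D1:**
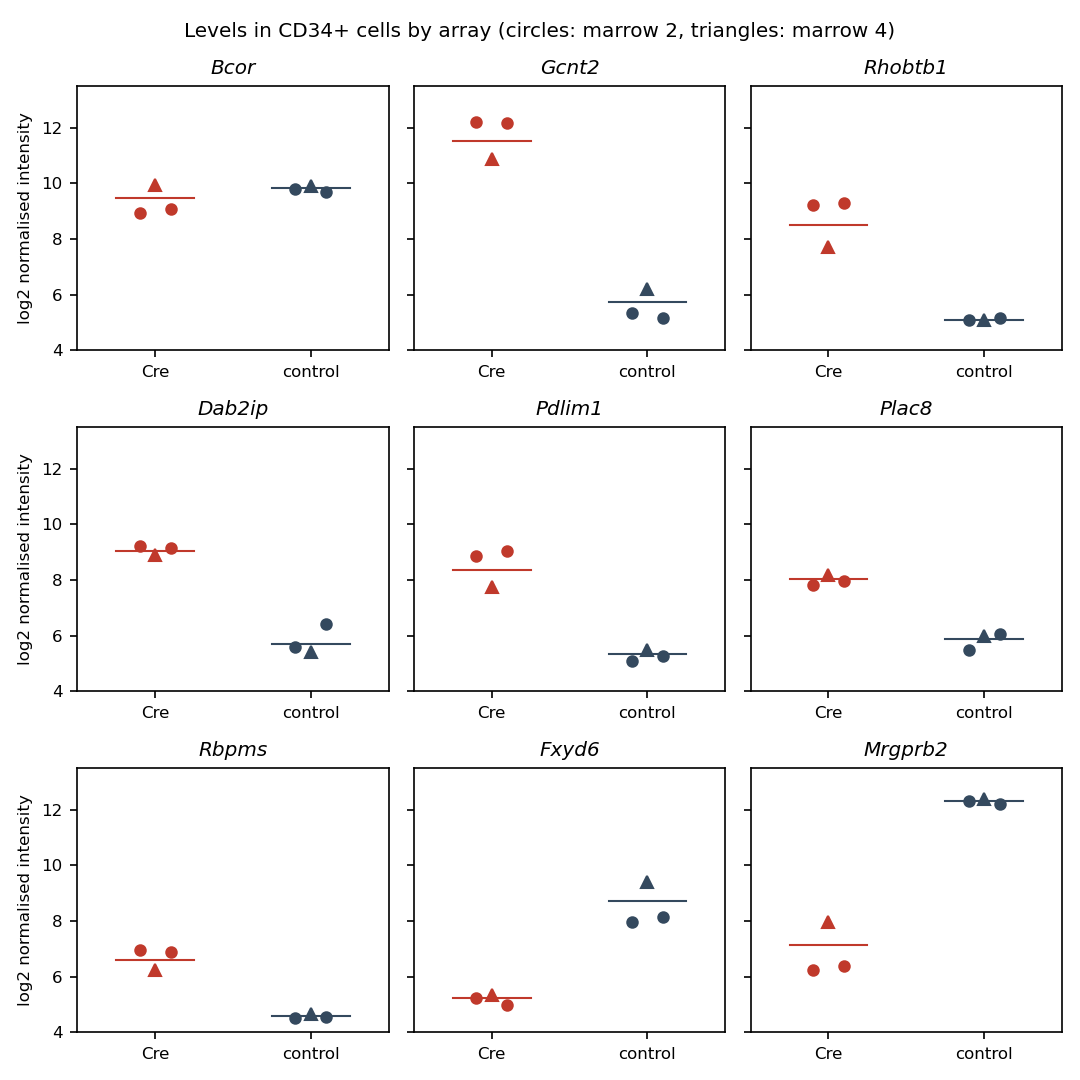
Levels of Bcor, the 7 genes past the threshold and Mrgprb2 in CD34+ cells, as log2 normalised intensity, with Cre arrays left and control arrays right. Circles are the repeats of marrow number 2, triangles are marrow number 4, and lines are means over the 2 marrows; Bcor overlaps between the arms, and the other 8 genes do not.

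Over both marrows 7 of 8944 genes passed the threshold. The 6 that rose were Gcnt2, Dab2ip, Rhobtb1, Pdlim1, Plac8 and Rbpms, 0.0671% of the genes tested, and Fxyd6 alone fell, 0.0112% of them. They include enzymes and adaptors of the cell surface and cytoskeleton, with no blood lineage marker of the lists used here among them. A replicate block for marrow number raised the count to 33 genes, 22 up and 11 down, and all 7 remained. When all 12 arrays entered with marrow and arm together as a random block, 9 passed, 6 of the 7 among them, and Plac8 did not (adjusted p = 0.0654, limma). Fitted on the CD34+ samples without the BM samples, which leaves 2 residual degrees of freedom, none passed, and 166 had an unadjusted p under 0.05 (limma). In the fit with the BM samples 438 of the 8944 genes did. Without any difference a share of 0.05 of the genes would do so, and neither count exceeds that share.

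Gcnt2, the enzyme that adds I-type branches to lactosamine chains, showed the largest difference of all genes. It stood at 12.20, 12.16 and 10.88 on the Cre arrays, against 5.34, 5.16 and 6.22 on the control arrays, and was detected on only 1 of the 3 controls. The lowest Cre array lay well above the highest control. The means were 11.53 ± 0.92 with Cre and 5.73 ± 0.68 in controls (SD over 2 marrows), and the rise was 5.80 ± 0.51 (adjusted p = 0.00324, limma), or 6.93 in number 2 and 4.67 in number 4. The controls lie near background, and with an offset of 50 in place of 16 the rise was 5.09, the smallest of all settings tried. The measured probe (ILMN_1227951) was 1 of 5 for Gcnt2. The other 4 were detected on at most 1 array, and their differences ran from 0.04 to 1.03 in number 2 and from −0.23 to 0.09 in number 4.

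Dab2ip, a GTPase-activating protein for Ras, rose by a similar amount in each marrow. Its levels were 9.23, 9.14 and 8.91 with Cre, against 5.59, 6.43 and 5.41 in controls, with no overlap. The rise was 3.34 ± 0.25 (adjusted p = 0.00172, limma), 3.17 in number 2 and 3.50 in number 4. Of the 2 other probes kept for Dab2ip, one gave 3.93 and 3.29 by marrow and another 3.00 and 2.18. Rhobtb1, a BTB domain protein that binds the ubiquitin ligase scaffold cullin 3, was at 9.23, 9.28 and 7.73 with Cre, against 5.08, 5.18 and 5.09 in controls. It was undetected on all 3 controls, so the rise is given as at least 7.99-fold (adjusted p = 0.0246, limma). The array labelled number 4 Cre lay between the number 2 Cre arrays and the controls. A second Rhobtb1 probe, detected on 2 of the 6 arrays and not kept, gave 1.44 and 0.16 by marrow.

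Pdlim1, a PDZ and LIM domain protein of actin stress fibres, was at 8.87, 9.05 and 7.75 with Cre, against 5.10, 5.29 and 5.48 in controls, and was detected on 1 control. It rose by 3.02 ± 0.38 (adjusted p = 0.0246, limma), 3.77 in number 2 and 2.28 in number 4. Plac8, a small cysteine-rich protein of myeloid and other cells, was at 7.82, 7.95 and 8.19 with Cre, against 5.49, 6.05 and 6.00 in controls. It rose by 2.15 ± 0.22 (adjusted p = 0.00807, limma), nearly evenly at 2.11 and 2.19 by marrow. Rbpms, an RNA-binding protein with an RRM domain, was at 6.95, 6.89 and 6.25 with Cre, against 4.53, 4.54 and 4.67 in controls. It was undetected in controls and rose at least 2.13-fold (adjusted p = 0.0488, limma). The other Rbpms probes, detected on at most 2 arrays, differed by 0.04 to 0.88 in number 2 and by 0.19 to 0.95 in number 4. None of these 3 genes overlapped between the arms.

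Fxyd6, a small membrane protein that modulates the sodium pump, was the gene that fell. It stood at 5.24, 5.0 and 5.36 on the Cre arrays, all undetected, against 7.98, 8.14 and 9.39 in controls. The fall was at least 9.14-fold (adjusted p = 0.0246, limma), and the control of number 4 was the highest array. It had a single probe, as did Pdlim1 and Plac8. Leaving out the number 4 control kept only Gcnt2 and Dab2ip past the threshold, with limma adjusted p = 0.120 for Rhobtb1, 0.0988 for Pdlim1, 0.0546 for Plac8, 0.137 for Rbpms and 0.0710 for Fxyd6. Leaving out the second Cre repeat of number 2 gave 0.0520 for Rbpms, while 111 genes, all 7 among them, passed once the array labelled number 4 Cre was dropped. In fits without a number 4 array an arm held number 2 alone.

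Mrgprb2, the receptor through which basic peptides and drugs activate connective tissue mast cells, had the largest downward difference. It stood at 6.24, 6.37 and 7.98 on the Cre arrays, against 12.33, 12.20 and 12.40 in controls, and was detected on all 6. Every Cre array lay far below every control, and the array labelled number 4 Cre was the highest of the Cre arrays. The difference was −5.19 ± 0.93, which left 2.74% of the control level, with −5.96 in number 2 and −4.42 in number 4. It did not pass (adjusted p = 0.106, limma), nor with the replicate block (adjusted p = 0.0621, limma). With the random block of marrow and arm it did pass (adjusted p = 0.0338, limma). With the array labelled number 4 Cre removed the difference was −6.03. In RNA from a sorted population, fewer cells that make a transcript and less of it per cell cannot be told apart.

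Beyond the test, 102 genes differed by more than 1 log2 unit in the same direction in both marrows, 64 higher (0.716% of genes tested) and 38 lower (0.425%) with Cre. Of the 64, the 3 Cre arrays lay above the 3 control arrays for 52, and of the 38 they lay below for 36. Over all genes, Cre arrays lay wholly above controls for 7.60% and wholly below for 7.28%. The 102 genes were chosen by their differences on these same arrays. Their larger shares follow in part from that choice and are not independent support. Many of the 102 sat near background in an arm: 27 of the 64 were undetected on at least 1 control array, and 22 of the 38 on at least 1 Cre array. With an offset of 50 the count was 53, all among the 102. None of the 64 is known by a clone name only, and 4 of the 38 are.

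Several receptors and a transporter were among the genes higher in both marrows, and none passed the test without the block. Slc6a4, the serotonin transporter, was at 10.45, 10.47 and 9.13 with Cre, against 7.07, 7.44 and 6.19 in controls. All Cre arrays exceeded all controls, by 3.21 in number 2 and 2.94 in number 4 (adjusted p = 0.190, and 0.0465 with the replicate block, limma), and it did not pass with the random block (adjusted p = 0.101, limma). Gpr183, a receptor for oxysterols, was at 9.06, 9.06 and 7.64 with Cre, against 6.06, 6.66 and 5.46 in controls (2.70 and 2.18 by marrow, adjusted p = 0.188, and 0.0257 with the replicate block, limma). Gpr65, a proton-sensing receptor, was at 9.0, 8.83 and 7.5 with Cre, against 4.75, 5.16 and 5.77 in controls (3.96 and 1.73 by marrow, adjusted p = 0.312, limma). Ltb4r1, the high-affinity leukotriene B4 receptor, was at 11.49, 11.45 and 11.74 with Cre, against 9.59, 9.30 and 10.09 in controls (2.02 and 1.65 by marrow, adjusted p = 0.0574, and 0.0257 with the replicate block, limma). None of the 4 overlapped between the arms. With the random block, Ltb4r1 passed (adjusted p = 0.0410) and Gpr183 did not (adjusted p = 0.238, limma).

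Glipr2, a Golgi-associated protein, was at 9.14, 9.10 and 9.57 with Cre, against 6.96, 6.89 and 6.48 in controls. The difference was 2.19 in number 2 and 3.08 in number 4 (adjusted p = 0.0574, and 0.0376 with the replicate block, limma), and a second kept probe gave 2.55 and 3.38. Trgv4, a variable segment of the T cell receptor gamma locus, was at 12.10, 12.21 and 9.32 with Cre, against 9.42, 9.36 and 5.67 in controls. Marrow number 4 lay lower in both arms, so the arms overlapped although each marrow showed a difference, of 2.77 and 3.66. Fkbp11, a peptidyl-prolyl isomerase of the secretory pathway, showed the same layout at 11.22, 11.22 and 9.21 with Cre, against 8.98, 9.27 and 7.27 in controls (2.09 and 1.93 by marrow). Neither passed with or without the block (lowest adjusted p = 0.186, limma). Ube2e2, a ubiquitin-conjugating enzyme, was at 7.90, 7.69 and 8.25 with Cre, against 6.12, 6.19 and 6.48 in controls (1.64 and 1.77 by marrow, adjusted p = 0.0574, and 0.0257 with the replicate block, limma). With the random block Glipr2 passed (adjusted p = 0.0151) and Ube2e2 did not (adjusted p = 0.0654, limma).

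Among the genes lower in both marrows were adhesion and mast cell surface genes. Cadm1, an immunoglobulin-type adhesion molecule of mast cells, was at 8.54, 8.67 and 6.71 with Cre, against 10.92, 10.97 and 9.00 in controls. The highest Cre value lay just below the lowest control, with −2.34 in number 2 and −2.29 in number 4 (adjusted p = 0.612, and 0.0319 with the replicate block but 0.430 with the random block, limma). Itgae, the integrin alpha E chain, was at 4.80, 5.19 and 7.06 with Cre, against 7.37, 7.18 and 8.50 in controls (−2.28 and −1.44 by marrow). Mrgprx2, another receptor of the same family as Mrgprb2, was undetected with Cre and at 5.77, 5.78 and 6.93 in controls (at least 1.76-fold lower, adjusted p = 0.210, limma). Both kept the arms apart.

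Other genes lower in both marrows have no common role. Dnali1, an axonemal dynein light intermediate chain, was at 6.54, 6.97 and 6.43 with Cre, against 8.71, 8.60 and 7.93 in controls (−1.90 and −1.49 by marrow, adjusted p = 0.0929, and 0.0257 with the replicate block but 0.20 with the random block, limma). Ky, a muscle peptidase, was undetected with Cre and at 6.96, 6.90 and 7.10 in controls, at least 2.80-fold lower. Thsd4, a thrombospondin-repeat matrix protein, differed by −2.03 in number 2 and −1.49 in number 4, and the membrane protein gene Pdzk1ip1 by −2.07 and −1.46. Ky, Thsd4 and Pdzk1ip1 passed neither with nor without the replicate block (lowest adjusted p = 0.109, limma). Car2, the cytosolic carbonic anhydrase, was at 6.09, 5.64 and 5.84 with Cre, against 7.69, 7.35 and 7.07 in controls (−1.65 and −1.24 by marrow, adjusted p = 0.279, limma). The plot of one marrow's differences against the other's shows these genes in its corners.

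**Figure D2:**
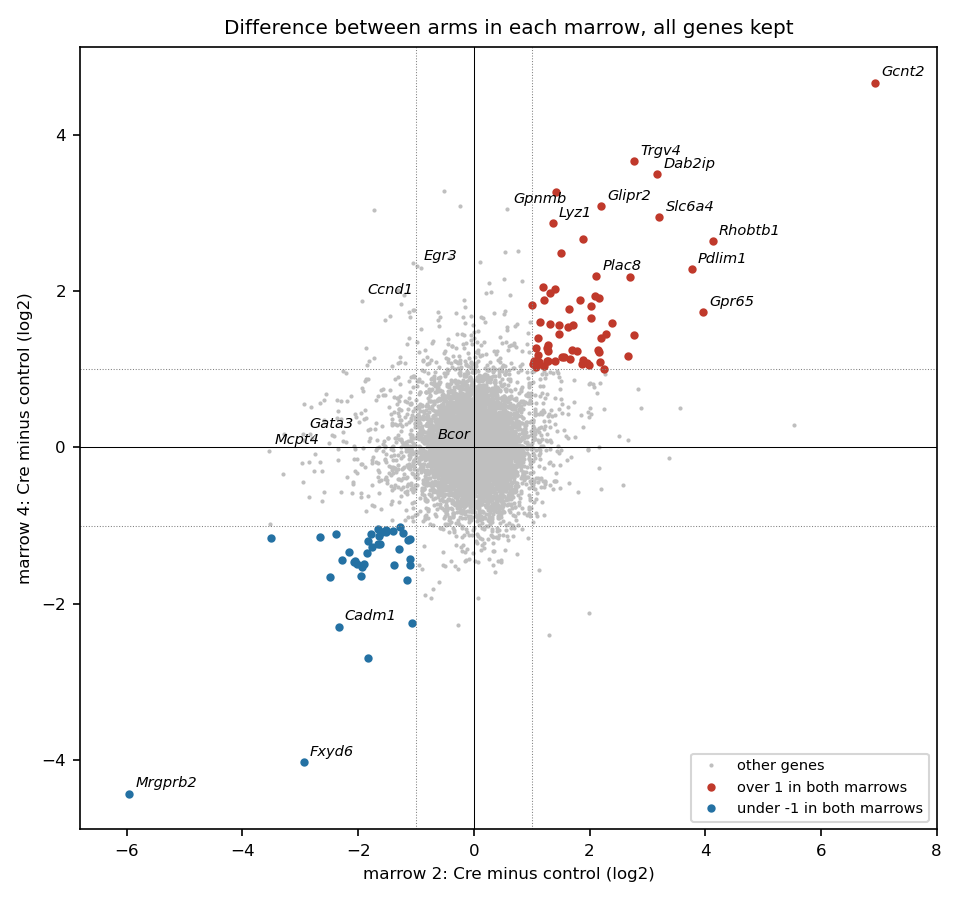
Cre minus control (log2) of each of 8944 genes in marrow number 2 (horizontal) and marrow number 4 (vertical), with dotted lines at 1 and −1. Red points are the 64 genes over 1 in both marrows and blue points the 38 under −1 in both. Some genes lie near an axis, as Mcpt4 and Gata3 do. Of 110 genes past 2 in number 2, 46 differed by less than 0.5 in number 4. Of 38 past 2 in number 4, 5 differed by less than 0.5 in number 2.

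Many large differences were not shared by the marrows. Past 2 log2 units in either direction there were 110 genes in number 2, and 46 of them differed by less than 0.5 in number 4, while 35 moved the same way by over 1. In number 4 there were 38 such genes, of which 5 differed by less than 0.5 in number 2 and 20 moved the same way by over 1. The single-marrow genes described next were chosen after their values were seen. Clec11a, a growth factor for blood progenitors, was at 10.96 or above on both number 2 Cre arrays and at 5.85 on the array labelled number 4 Cre, against 5.18, 5.72 and 5.56 in controls. The actin-binding tropomyosin gene Tpm4 was at 12.61, 12.66 and 10.32 with Cre, against 9.25, 9.29 and 10.45 in controls. Both were high with Cre in number 2 alone.

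Mcpt4, a chymase of connective tissue mast cells, was at 11.18 and 11.14 on the number 2 Cre arrays and at 14.54 on the array labelled number 4 Cre, against 14.72, 14.70 and 14.58 in controls. Cma2, another chymase, showed the same layout at 12.23, 12.21 and 14.81, against 14.98, 14.94 and 14.89 in controls. The decoy interleukin 1 receptor Il1r2 was at 5.47, 5.32 and 10.32 with Cre, against 8.69, 8.65 and 10.14 in controls. These 3 were low with Cre in number 2 alone. A further group differed by over 1 in opposite directions, with 23 genes lower in number 2 and higher in number 4 and 3 genes the reverse. The coagulation factor XIII subunit F13a1 was at 8.91, 9.07 and 5.22 with Cre, against 6.95, 7.04 and 7.34 in controls, which is 1.99 in number 2 and −2.12 in number 4. Cyclin D1, Ccnd1, was at 9.30, 9.34 and 11.03 with Cre, against 11.34, 11.19 and 9.15 in controls, which is −1.94 and 1.88. Averaged over the marrows, Ccnd1 differed by −0.03 ± 0.77.

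Gene lists by pathway and cell type were described by counts and medians, since few members passed. In the list of glycan chain enzymes 1 of 37 measured genes rose, Gcnt2, and none fell. No member of the other lists described here passed. The median of the glycan enzymes was −0.03 in number 2 and 0.04 in number 4, near that of all genes (0.00 in each marrow).

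Weaker differences shared by both marrows were counted at 0.5 log2 units, which 222 genes (2.48%) reached upward and 166 (1.86%) downward. Among glycan enzymes 4 of 37 did so upward. Besides Gcnt2 these were the sialyltransferase St6gal1 (1.50 and 0.74 by marrow), Galnt12, which starts mucin-type chains (1.19 and 0.78), and Fut8, the core fucosyltransferase (1.27 and 0.69). St6galnac6 was the 1 member lower in both (−0.65 and −0.55). Among lipid and proton-sensing receptors 4 of 26 did so upward, namely Gpr65, Gpr183, Ltb4r1 and the chemokine receptor Ccr2 (0.61 and 1.30), and none downward. Both lists were chosen with earlier results of these data known, and Gcnt2 was a given marker. Their counts are therefore not evidence about either gene family.

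Mast cell genes went both ways. The marrows also differed in the list of 41 measured signalling and mediator genes. In number 2, 16 were under −0.5 and 3 over 0.5, and in number 4, 5 were under and 14 over. The medians were −0.34 and 0.04. Over all genes 13.5% and 9.13% were under −0.5, and 12.1% and 11.3% over 0.5. Of the 41, 2 were higher in both marrows, Slc6a4 and Hdc, which makes histamine. Hdc was at 12.03, 12.15 and 13.03 with Cre, against 10.65, 10.64 and 12.06 in controls, so the arms overlapped slightly while each marrow differed, by 1.44 and 0.97 (adjusted p = 0.790, and 0.0305 with the replicate block but 0.596 with the random block, limma). Mrgprb2, Itgae and Mrgprx2 were the 3 lower in both. Of 9 proteases, the tryptase Tpsab1 was lower in both, at 8.68, 8.61 and 11.23 with Cre, against 11.31, 11.32 and 12.37 in controls (−2.67 and −1.14). The protease median was −0.52 in number 2 and −0.04 in number 4. The sign in number 4 turned under median scaling (0.361) and in the authors' deposited value table (0.153).

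No primary granule or monocyte gene passed the test (adjusted p = 0.951 for Lyz1, and 0.999 for Lyz2, Ccr2, Fcgr3 and Gpnmb, limma). Of 8 measured primary granule genes, 2 passed 0.5 in both marrows, Lyz2 (1.89 and 2.67) and Lyz1 (1.36 and 2.87), which encode the macrophage and Paneth cell lysozymes and share much sequence, so their probes may not be independent. Lyz2 was at 8.02, 7.86 and 10.50 with Cre, against 5.93, 6.17 and 7.83 in controls. Of 15 measured monocyte and macrophage genes, of 36 on the array, 4 were higher in both. These were Gpnmb (0.57 and 3.05), Ccr2, the low-affinity Fc receptor Fcgr3 (0.86 and 0.60) and Fcgr1, undetected in controls (at least 1.83-fold higher). Galectin 3, Lgals3, was the 1 lower in both (−1.65 and −0.58). The mean level of the 15 genes was 8.84, 8.85 and 9.14 on the Cre arrays, against 8.78, 8.87 and 8.62 on the control arrays, and Csf1r, Cd14 and Ly6c1 did not pass detection. The part of other cells in these differences was not tested.

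Stem cell and Polycomb genes moved little in common. Of 15 stem and progenitor genes none reached 0.5 in both marrows, and the angiopoietin receptor Tek differed by −2.59 in number 2 and 0.61 in number 4. The list's mean level was 9.47, 9.40 and 9.84 with Cre, against 9.82, 9.90 and 9.67 in controls. Of 13 PRC1.1 and BCL6 partners the repressor Bcl6 itself was lower in both, at 5.80, 5.83 and 7.37 with Cre, against 7.22, 7.23 and 8.29 in controls (−1.41 and −0.92). Its arms overlapped, since number 4 lay higher in both. Bcorl1, the paralogue of Bcor, differed by 1.27 in number 2 and 0.09 in number 4. Of 20 other Polycomb subunits and 10 measured Hox genes and cofactors none reached 0.5 in both, and the Hoxa9 cofactor Meis1 differed by 0.50 and 0.22. A second kept Meis1 probe, detected on all 6 arrays, gave −0.23 and 1.00.

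No member of the cell cycle lists passed the test. Of 35 DNA replication genes, 32 were above 0 in number 2 and 13 in number 4, where over all genes 50.2% and 50.3% were. The medians were 0.36 and −0.06. The replication licensing gene Mcm3 was at 10.60, 10.47 and 8.96 with Cre, against 10.07, 10.12 and 9.77 in controls. Of 33 mitosis genes 30 and 20 were above 0 (medians 0.21 and 0.06). Of 12 D cyclins and G1 kinases 2 passed 0.5 in both, the kinase Cdk6 (0.98 and 0.69) and cyclin E2, Ccne2 (0.54 and 0.94), and the medians of the list were 0.32 and 0.30. Of 23 quiescence genes and cell cycle brakes 2 did, the growth suppressor Ndn (1.56 and 1.16) and Gadd45b (0.71 and 1.55), while 8 were under −0.5 in number 2 and 3 in number 4.

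Ribosome biogenesis genes had a positive median in marrow number 2 and a slightly negative one in number 4, a difference that was not tested, and none passed. Over all genes 12.1% were over 0.5 in number 2 and 11.3% in number 4, and 13.5% and 9.13% were under −0.5. Of 31 ribosome biogenesis and Myc genes, 16 were over 0.5 in number 2 and 2 in number 4, with medians of 0.54 and −0.11. In number 2, 24 of them were above 0, and in number 4, 11. Their mean level was 9.79, 9.81 and 9.66 with Cre, against 9.38, 9.35 and 9.71 in controls. Rrp12, an export factor of the small subunit, was at 11.20, 11.22 and 10.44 with Cre, against 9.66, 9.94 and 10.76 in controls, and Srm, spermidine synthase, at 12.75, 12.75 and 11.74, against 11.65, 11.59 and 11.49 in controls. The cytosolic ribosomal protein genes, 35 measured, had medians of −0.02 and 0.02. These medians depended on the scaling: they were −0.24 and 0.27 under median scaling, and −0.13 and 0.07 in the authors' deposited value table.

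Immediate early genes moved in opposite directions in the marrows. Of 15 measured members of the immediate early and AP-1 list, 10 were under −0.5 in number 2 and 10 were over 0.5 in number 4. The medians were −0.60 in number 2 and 0.99 in number 4, the widest split of any list with 5 or more measured genes. Fosb, an AP-1 subunit, was at 8.02, 8.17 and 10.55 with Cre, against 9.18, 9.09 and 8.19 in controls. The zinc finger factor Egr2 was at 9.01, 9.02 and 10.99 with Cre, against 10.40, 10.24 and 8.97 in controls, and Egr3 at 9.75, 9.79 and 14.26, against 10.75, 10.76 and 11.95 in controls. In each the array labelled number 4 Cre was the highest of the 6. Zfp36, which destabilises cytokine mRNA, was the member over 0.5 in both marrows (0.76 and 2.51). The mean level of the list was 9.96, 9.98 and 11.10 on the Cre arrays, against 10.50, 10.48 and 9.97 on the control arrays.

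**Figure D3:**
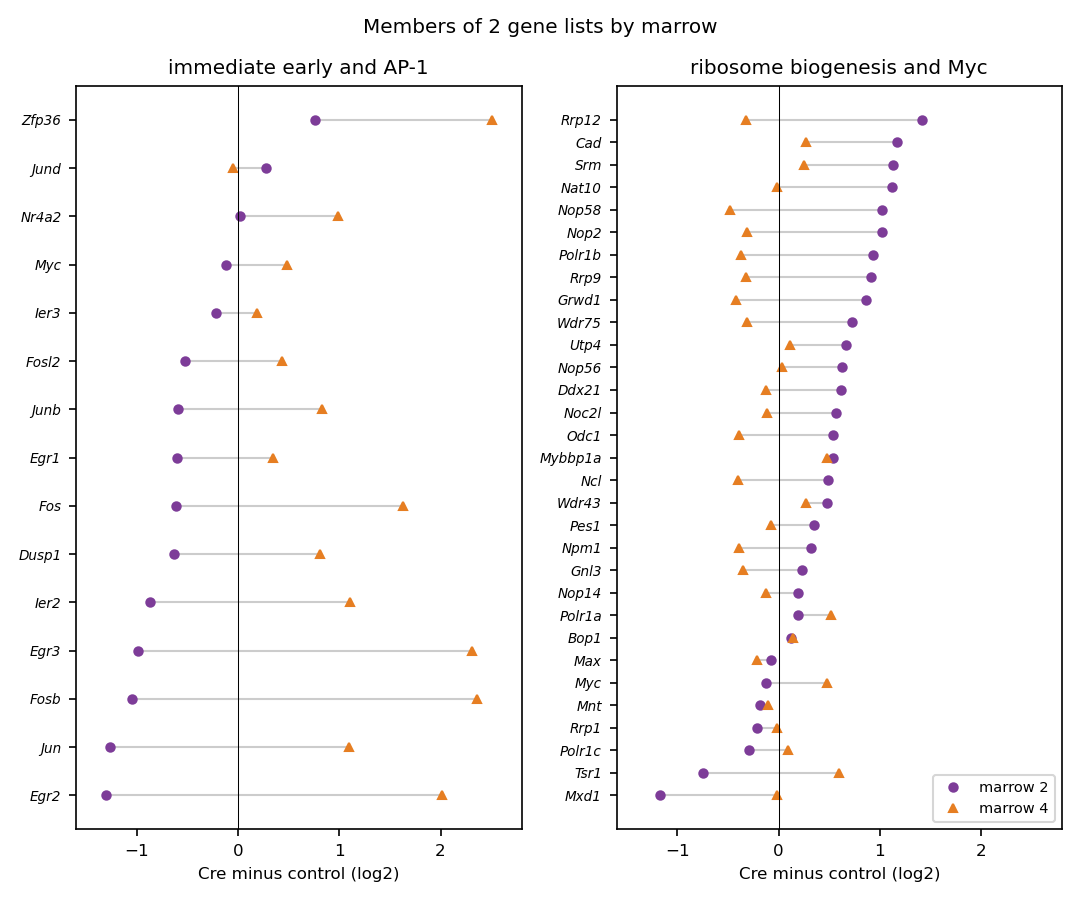
Cre minus control (log2) of each measured member of the immediate early and AP-1 list (left) and of the ribosome biogenesis and Myc list (right), with circles for marrow number 2 and triangles for marrow number 4. Immediate early genes lie mostly left of 0 in number 2 and right of 0 in number 4, while ribosome biogenesis genes lie mostly right of 0 in number 2 and near 0 in number 4.

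Medians of the ERK, p53 and interferon lists had opposite signs in the marrows, and those of the stress list did not. The median of 12 ERK feedback genes was −0.24 in number 2 and 0.40 in number 4, and that of 20 p53 response genes −0.26 and 0.27. Tumour necrosis factor, Tnf, was at 11.28, 11.57 and 12.24 with Cre, against 11.34, 11.29 and 9.87 in controls, and the cytokine Csf1 at 5.73, 5.33 and 9.92, against 7.12, 7.0 and 8.29 in controls. Of 24 interferon response genes 11 were under −0.5 in number 2 and 5 in number 4, with medians of −0.46 and 0.12. Members of that list differed both ways in both marrows. Ly6e (0.80 and 1.04) and Isg20 (0.75 and 0.84) were higher, and the GTPases Gbp2 (−1.60 and −0.79) and Gbp3 (−0.52 and −0.90) and the antiviral factor Trim30a (−0.83 and −0.68) lower in both. A second kept Gbp3 probe, detected on 3 of the 6 arrays, gave −0.67 and 0.16. The median of 28 Atf4 stress and amino acid supply genes was 0.28 in number 2 and 0.07 in number 4, and that of 20 JAK-STAT feedback genes and targets −0.06 and 0.09. In the Atf4 list Cth, which makes cysteine, was undetected in controls and at least 1.64-fold higher (adjusted p = 0.567, limma). In the antioxidant list the glutathione transferase Gsta3 was undetected with Cre and at least 2.60-fold lower. Lists of the respiratory chain, glycolysis, lysosome and granule exocytosis had medians between −0.17 and 0.20 in both marrows, as the plot of list medians shows.

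**Figure D4:**
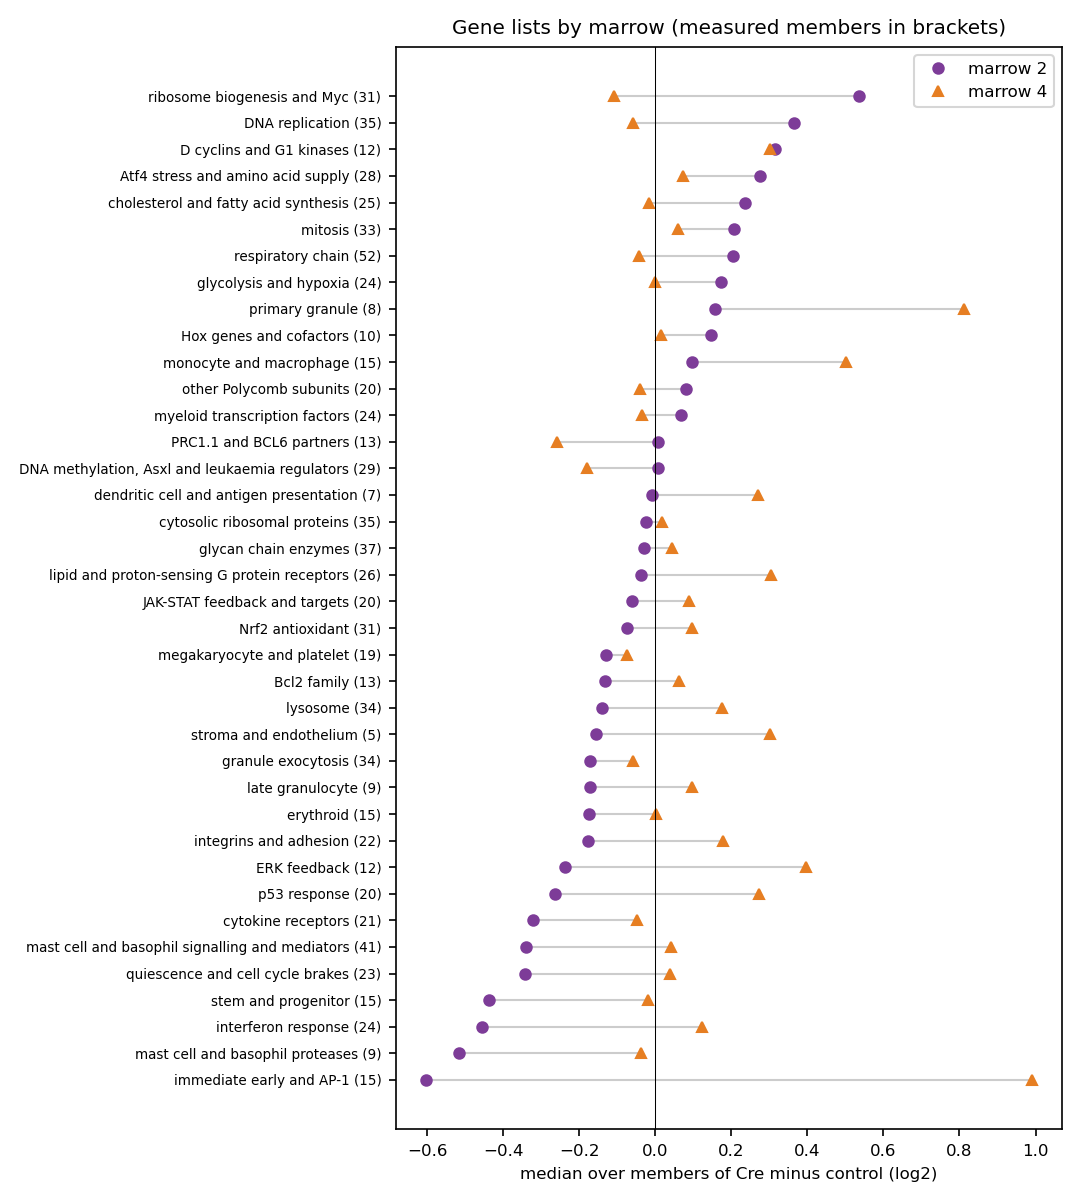
Median Cre minus control (log2) over the measured members of each gene list shown, all with at least 5, ordered by the value in marrow number 2 (circles), with marrow number 4 as triangles. The immediate early and AP-1 list has the widest gap, −0.60 against 0.99, and the D cyclins and G1 kinases list nearly the same value in both, 0.32 and 0.30.

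The unsorted BM cells showed the same direction for most genes that were higher in both CD34+ marrows. Their arrays shared the normalisation but did not enter the rule of 1 log2 unit in both marrows. The test that called the 7 genes past the threshold took its spread in part from BM samples. The BM changes of those 7 are therefore not independent support. In BM cells 4.58% of the genes tested rose and 5.61% fell with Cre (limma, adjusted p under the threshold). Of the 64 genes higher in both marrows 35 rose in BM cells and none fell. Of the 38 lower in both marrows 8 fell in BM cells and 4 rose. All 7 genes past the threshold changed the same way in BM cells, by 3.25 for Gcnt2, 5.46 for Pdlim1, 6.61 for Plac8 and −2.55 for Fxyd6. The other 3 were undetected in BM controls and rose at least 7.64-fold (Dab2ip), 9.67-fold (Rhobtb1) and 5.46-fold (Rbpms). Mrgprb2 fell there too, with a difference of −4.10 (adjusted p = 0.00959, limma). Bcor also fell in BM cells, by 1.15 (adjusted p = 0.0189, limma).

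The effect of Cre differed between CD34+ and BM cells for 47 genes (0.525% of those tested), and 934 had an unadjusted p under 0.05 (limma). It was greater, in the signed sense, in CD34+ cells for 9 and smaller for 38. Of the 7 genes past the threshold in CD34+ cells, Plac8 was the one whose effects differed, 2.15 in CD34+ cells and 6.61 in BM cells, a difference of −4.46 ± 0.28 (adjusted p = 0.000334, limma). For Gcnt2 the difference of effects, 2.55 ± 0.66, did not pass (adjusted p = 0.168, limma). Cldn15, a tight junction claudin, was at 6.18, 6.43 and 6.86 with Cre, against 6.52, 6.76 and 6.40 in CD34+ controls, where the arms overlapped, and rose at least 22.4-fold in BM cells, where controls were undetected. Hepatocyte growth factor, Hgf, and the granulocyte protein grancalcin, Gca, differed by −0.05 and −0.18 over both marrows in CD34+ cells. In number 2 and number 4 Hgf differed by 0.12 and −0.21, and Gca by −0.90 and 0.53. In BM cells Hgf rose by 4.70 and Gca, undetected in controls there, also rose. Car2 had opposite signs, with −1.45 ± 0.33 in CD34+ cells and 1.18 in BM cells, a difference of −2.62 ± 0.43 (adjusted p = 0.0356, limma).

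**Figure D5:**
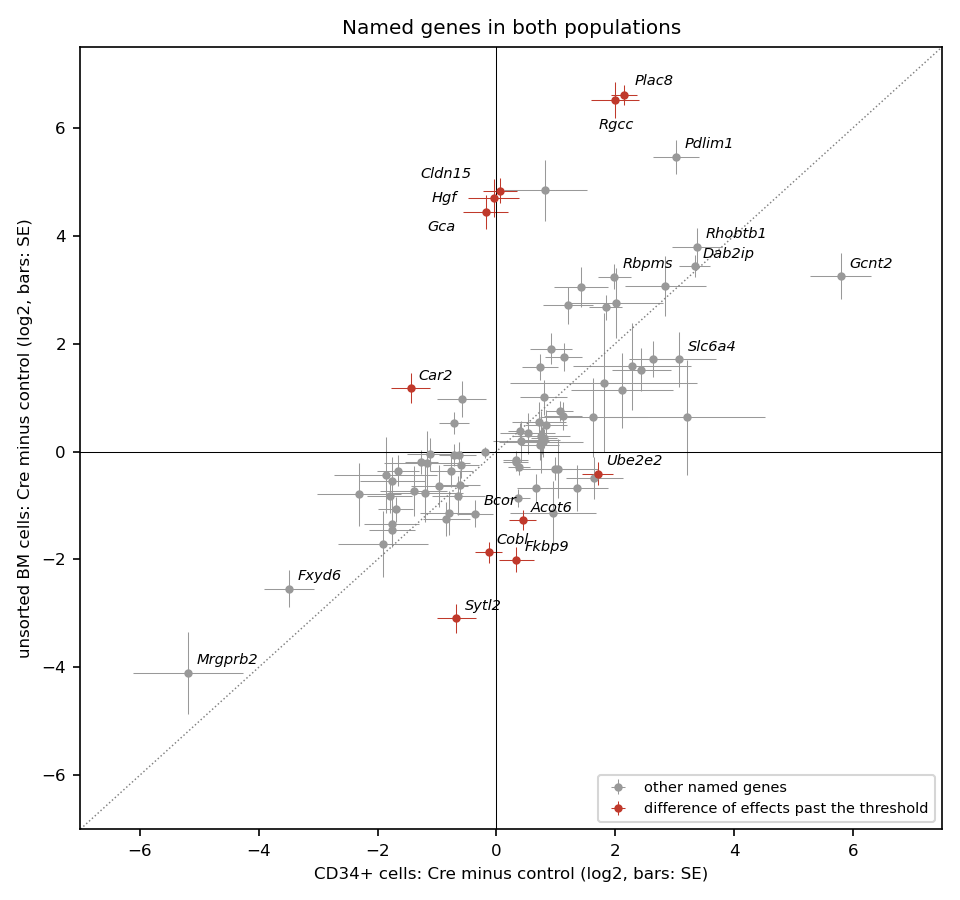
Cre minus control (log2) of the named genes in CD34+ cells (horizontal) and unsorted BM cells (vertical), with bars for the SE and a dotted line where both are equal. Red points are genes whose effects differed between the populations, such as Plac8 at 2.15 and 6.61, while Dab2ip and Rhobtb1 lie near the line. Genes undetected in an arm are plotted at their normalised signal.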

How the data were processed

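Total RNA of 12 samples was hybridised to 1-colour Illumina arrays. The deposited intensities are linear signals with a background already subtracted, and the detection p-values rank each probe's signal among negative controls, per the file headers. The software and genome build are not given in the sources used here. The authors' deposited value table holds intensities scaled between arrays by a method whose centring is not stated, with low values set to 24, and served as an alternative only.

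Intensities were background-corrected, quantile-normalised and put on a log2 scale with neqc (limma 3.58.1, R 4.3.3, offset 16) over the 12 arrays. Of 45281 probes, 34885 had 1 gene symbol, 18 several and 10378 none. The kept probe with the highest mean over the CD34+ arrays stood for its gene, and 3411 genes had several. A further 2310 kept probes without a single symbol were tested apart, and 7 passed. Number 2 repeats were averaged within an arm, and limma fitted means of 4 groups (2 CD34+ Cre, 2 CD34+ control, 3 BM Cre and 3 BM control samples) with an intensity trend, 6 residual and 3.61 prior degrees of freedom. A fold is given as "at least" where a gene was undetected on all arrays of an arm. It sets the detected arm's mean against the higher of the lowest detected signal and the gene's own signal in the other arm. The number of arrays limits the precision. The fit was tested on simulated data.

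Marrow numbers come from the labels and pair the arms. Over genes, the deviation of number 4 from number 2 correlated at 0.516 between arms. The members and gene lists were chosen with earlier results of these data known. Named genes are Bcor, the 4 given markers, genes past the threshold (up to 12 each way), the 10 each way with the largest lesser marrow difference, 5 each way by the difference of effects between populations, and per list up to 3 each way past 0.5 in both marrows, otherwise the smallest p. Other genes named were chosen after their values were seen. The alternatives were other normalisations, filters, probe rules, sample sets and blocks, and leaving out each CD34+ array. The result of 1 gene list is not reported here.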

Additional observations from a re-analysis of the deposited data

Results flagged for a closer look

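The effect of Cre differed between CD34+ and unsorted BM cells, by a test of the difference itself (limma, Benjamini-Hochberg over all genes), for these named genes, given as CD34+ effect minus BM effect. For genes undetected in an arm (Fkbp9, Cldn15, Gca and Rgcc) the size rests on signals at background. Of those with a more positive effect in CD34+ cells, Sytl2, which tethers secretory vesicles, differed by 2.42 ± 0.42 (adjusted p = 0.0457), with −0.68 in CD34+ cells and −3.09 in BM cells. Fkbp9, an endoplasmic reticulum isomerase, differed by 2.34 ± 0.38 (adjusted p = 0.0330), with 0.33 in CD34+ cells and a fall of at least 3.12-fold in BM cells, where Cre arrays were undetected. In CD34+ cells Fkbp9 differed by −0.13 in number 2 and 0.80 in number 4. Ube2e2 differed by 2.12 ± 0.33 (adjusted p = 0.0317), with 1.71 and −0.41. Cobl, an actin nucleator, differed by 1.73 ± 0.30 (adjusted p = 0.0456), with −0.13 and −1.87. The acyl-CoA thioesterase Acot6 differed by 1.71 ± 0.29 (adjusted p = 0.0368), with 0.44 and −1.27.

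Of those with a less positive effect in CD34+ cells, Cldn15 differed by −4.77 ± 0.37 (adjusted p = 0.000944), Hgf by −4.74 ± 0.56 (adjusted p = 0.00585) and Gca by −4.62 ± 0.50 (adjusted p = 0.00528). The cell cycle regulator Rgcc differed by −4.52 ± 0.53 (adjusted p = 0.00579), with 1.99 in CD34+ cells and 6.52 in BM cells, and Plac8 by −4.46 ± 0.28 (adjusted p = 0.000334). Car2 differed by −2.62 ± 0.43 (adjusted p = 0.0356).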

How the results depend on the processing

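The number of genes past the threshold in CD34+ cells, 7, moved widely. With marrow number as a replicate block it was 33, with the 12 arrays as separate samples 75, and with both 371. Those last settings count repeats of a marrow as independent. It was 81 with marrow number 2 alone, an alternative chosen after seeing the data, 14 with the mean of a gene's probes, 12 with an offset of 50 and 3 without background correction. It was 0 when the CD34+ samples were fitted alone and 0 when they were also normalised alone. In these fits 166 and 164 genes had an unadjusted p under 0.05 (limma), neither above the share of 0.05 expected without any difference. Leaving out 1 CD34+ array gave 2 (without the number 4 control) to 111 (without the array labelled number 4 Cre). All 7 genes remained under the replicate block. Plac8 lost its call with the random block of marrow and arm (adjusted p = 0.0654). Rbpms lost its call under median scaling (0.0625), without background correction (0.0591), with an offset of 50 (0.0959), without the detection filter (0.0922) and in the authors' deposited value table (0.0991, adjusted p, limma). Rhobtb1, Pdlim1 and Fxyd6 also lost theirs without background correction (each 0.0591). Mrgprb2 passed in 4 of 21 settings (adjusted p from 0.00160 to 0.474, limma). The 47 genes whose effects differed between CD34+ and BM cells became 235 with separate arrays, 31 in the authors' deposited value table and 32 to 66 on leaving out an array. The 102 genes past 1 in both marrows became 59 without background correction and 53 with an offset of 50, chosen after seeing the data, and 98 to 106 on leaving out a number 2 array. Signs turned for genes near 0 or near background, and for Bst2 and Ccne2, which were detected on all 6 CD34+ arrays. Bst2 differed by −0.01 in number 2 and by 1.56 in number 4. Cldn15 was −0.0733 with separate arrays, with and without the block, and −0.340 with number 2 alone. Hgf was 0.00938 and 0.121 in the same settings, and with number 2 alone Fkbp9 was −0.133 and Bst2 −0.00947. On leaving out an array Cldn15 ran from −0.217 to 0.122, Hgf from −0.287 to 0.362, Ccne2 from −0.341 to 1.63 and Gpnmb from −0.826 to 3.20. The cause was not tested. Levels near background limit the precision of the folds.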
